A study of Rattus norvegicus with 8 samples.

Results

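One hour of isoflurane was compared with a brief exposure in the rat brain. The comparison used 5 of the 8 arrays of the series. The control group held 3 arrays from rats that breathed isoflurane for 3 min and were then perfused at once with ice-cold saline, and the exposed group held 2 arrays from rats that breathed 2% isoflurane for 1 hr. The other 3 arrays, after 2 hr of 2% isoflurane, serve below only to set a 1 hr value beside its 2 hr value. Every rat was intubated, and total RNA of whole brain was measured, 1 array per sample. All probe sets other than the AFFX control probe sets were members, 8740 in all, of which 7770 passed the filter on low values.

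The design limits what these groups stand for. The controls had themselves breathed the anaesthetic, and no group without it was analysed here. Perfusion is labelled for the controls alone, so perfusion and length of exposure cannot be told apart. The sources used here give no strain, sex, age or animal number, so each p-value reflects differences among these samples only, technical ones included. In whole brain RNA, fewer cells of a type and less RNA per cell cannot be told apart. Most of a probe set's own spread came from the controls and the 2 hr group, since the 1 hr group had only 2 arrays. The test also borrowed spread from other probe sets, counted as 4.6 degrees of freedom beside 5 from the arrays.

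Isoflurane is a volatile ether that strengthens inhibition through GABA-A and glycine receptors, opens two-pore potassium channels, and dampens glutamate receptors and transmitter release. Transcripts that answer within an hour of a stimulus are mostly immediate early genes, whose transcription follows neuronal activity, and targets of the glucocorticoid receptor and of NF-kappaB, 2 transcription factors that enter the nucleus after stress hormones or cytokines. IkappaB-alpha, the product of Nfkbia, binds NF-kappaB in the cytoplasm, and its own gene is a target of both factors.

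By correlation, the 5 arrays did not sort by exposure. The 1 hr arrays correlated with each other at r = 0.906 across probe sets, whereas 1 hr replicate 2 correlated with control replicates 1 and 2 at 0.958 and 0.948. Top intensities reached 24393 on control replicate 3 and 23009 on 1 hr replicate 1, but 12445 and 10516 on the other controls and 5081 on 1 hr replicate 2. The bright end was compressed on 1 hr replicate 2: the 100 probe sets brightest in the controls had a median intensity of 3196 there and of 6374 on 1 hr replicate 1, against 4058 to 7777 on the controls. Ribosomal protein genes averaged 11.69 (log2) on control replicate 3, 11.18 on 1 hr replicate 1, and from 10.17 to 10.45 on the remaining 3 arrays. The 3' to 5' ratio of the actin probe sets was 2.89 on control replicate 3 and 1.04 to 1.68 on the others. Below, a change "within the high-range arrays" is 1 hr replicate 1 minus control replicate 3, and one "within the other arrays" is 1 hr replicate 2 minus the mean of control replicates 1 and 2. Neither of these has replicates on both sides.

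No single probe set passed the test. Limma, fitted on all 8 arrays with Benjamini-Hochberg adjustment, called 0 of 7770 probe sets (0%) at an adjusted p under 0.05, and the smallest adjusted p was 0.684, for a dim probe set of the kinase gene Mapk8. At an unadjusted p under 0.05 there were 208, of which 142 read higher and 66 lower after 1 hr. Both 1 hr arrays lay above all 3 controls for 586 probe sets (7.54%) and below all 3 for 397 (5.11%). Counted once per gene on its brightest probe set, these were 328 of 4367 genes (7.51%) and 241 genes (5.52%). Of the non-overlapping probe sets, 138 read at least 2-fold higher and 79 at least 2-fold lower, and 221 and 198 were at or above the median level of the tested probe sets.

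The excess of higher over lower probe sets depended on the scaling. Higher readings made up 59.6% of the non-overlapping probe sets in the deposited scaling, 48.0% after quantile normalization, and 37.6% after median centring. The median log2 change of all probe sets was 0.05, and 1 hr replicate 1 carried it: its median difference from the control mean was 0.12, against -0.02 for 1 hr replicate 2. Only 505 probe sets of 1 hr replicate 1 sat at or under the floor, against 885 of 1 hr replicate 2. The median standard error of a change was 0.47, and it was 0.42 for bright and 0.51 for dim probe sets.

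**Figure D1:**
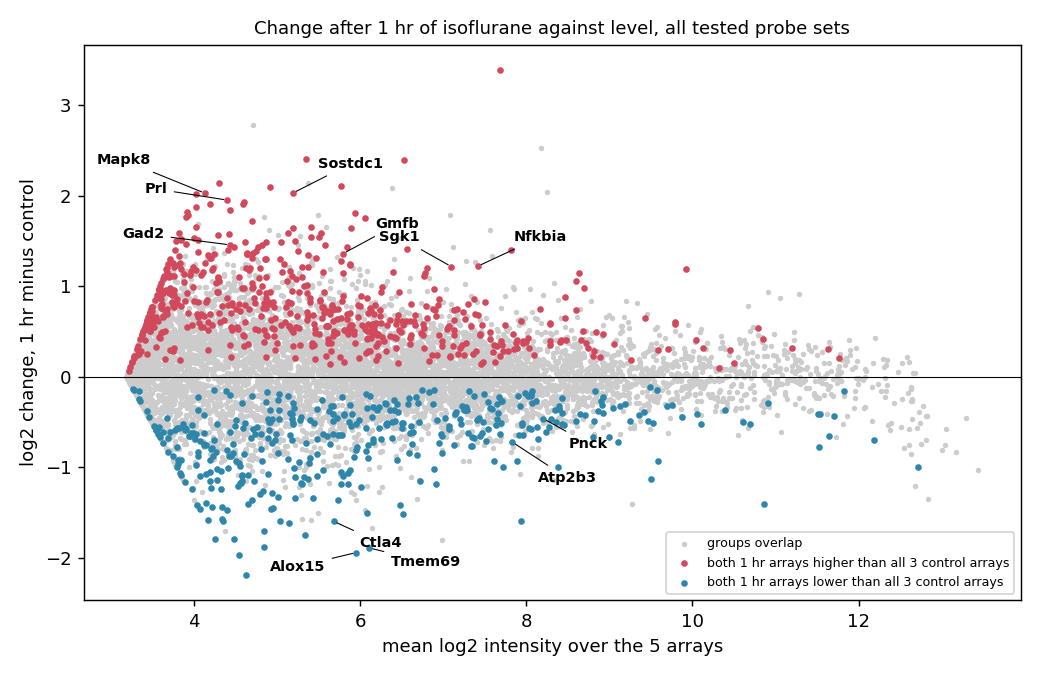
Log2 change after 1 hr of isoflurane (1 hr minus control) against the mean log2 intensity over the 5 arrays, 1 point per probe set. Red and blue mark the 586 and 397 probe sets whose 2 groups did not overlap. Nfkbia and Sgk1 are among the probe sets above the median level with changes above 1.

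Nfkbia differed evenly between the groups on a bright probe set. The brighter of its probe sets (X63594cds_at) read 129.7, 116.2 and 120.2 on the controls, and 285.0 and 283.8 on the 1 hr arrays. The 1 hr readings lay close together and more than 2-fold above every control. The log2 change was 1.22 with a standard error of 0.27, a 2.33-fold difference (limma, unadjusted p = 0.00121, adjusted p = 1.0). The second probe set of the same accession (X63594cds_g_at) read 55.1, 57.7 and 71.6 on the controls, and 103.6 and 178.6 after 1 hr. Its groups did not overlap either, at a log2 change of 1.16. The change of the brighter probe set was 1.25 within the high-range arrays and 1.21 within the other arrays, and it ran from 1.11 to 1.29 over all alternative settings. The 2 hr arrays read 199.9, 213.5 and 279.3 on it, above the controls as well.

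The promoter window of Nfkbia is shown because its product and its transcription are tied to NF-kappaB. It is the RefSeq sequence from 250 bases before to 50 after the start, GRCr8, chr6:78597023-78597322, minus strand. Capitals mark the matches to GGGANNNNCC, a pattern of NF-kappaB sites, searched on both strands.
Nfkbia promoter: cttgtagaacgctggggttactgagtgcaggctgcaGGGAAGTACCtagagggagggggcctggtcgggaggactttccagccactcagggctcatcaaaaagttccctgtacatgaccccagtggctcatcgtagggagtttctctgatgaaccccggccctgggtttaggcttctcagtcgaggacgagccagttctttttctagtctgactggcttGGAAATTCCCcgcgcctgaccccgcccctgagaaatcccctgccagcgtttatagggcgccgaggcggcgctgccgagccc
The matches, GGGAAGTACC and GGAAATTCCC, begin 214 and 31 bases before the start, and the second lies on the opposite strand of the pattern. This pattern occurs in 19.3% of the 33469 rat promoter windows of this length. TGTTCT, a core of glucocorticoid receptor sites, occurs in 20.7% of them and not in the Nfkbia window. None of the 3 windows of Sgk1 or the 1 window of Errfi1 holds either pattern. A match is a description of the letters and shows no binding.

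Sgk1, a kinase gene named for its induction by serum and glucocorticoids, read 87.9, 134.4 and 79.3 on the controls (L01624_at). It read 255.9 and 202.1 after 1 hr, both above the highest control. Its log2 level was 6.61 ± 0.40 (SD, n = 3) in controls and 7.83 ± 0.24 (SD, n = 2) after 1 hr. The log2 change was 1.22 with a standard error of 0.31, 2.32-fold higher (limma, unadjusted p = 0.00312). The change was 1.69 within the high-range arrays and 0.90 within the other arrays. At 2 hr Sgk1 read 391.3, 361.0 and 322.8, higher than on any 1 hr array. The difference between the exposures was 0.65 (limma, 2 hr minus 1 hr, unadjusted p = 0.0634).

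Cebpd, a transcription factor induced in acute stress, had 2 of 3 probe sets without overlap. The brightest (rc_AA946292_at) read 80.1, 121.2 and 151.0 on the controls, and 153.3 and 234.6 after 1 hr. The lower of the 1 hr readings barely cleared control replicate 3, and the log2 change of 0.74 was 0.02 within the high-range arrays and 1.25 within the other arrays. The dim probe set (rc_AI045030_s_at) gave 0.50 and the third (M65149_at) 0.41 with overlap. Errfi1, an inhibitor of epidermal growth factor receptors, read 52.3, 77.1 and 54.7 on the controls and 69.7 and 101.6 after 1 hr (rc_AI169756_s_at). These groups overlapped, at a change of 0.48 against 1.31 at 2 hr. The other probe sets of Errfi1 gave 0.20 and -0.18 at 1 hr.

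Gpd1, the cytosolic glycerol-3-phosphate dehydrogenase and a glucocorticoid target in brain glia, showed no such difference at 1 hr. It read 39.0, 28.3 and 28.5 on the controls, and 34.5 and 31.3 after 1 hr, a log2 change of 0.06. At 2 hr it read 143.0, 107.9 and 100.3. All 3 of these lay above both 1 hr arrays, and the exposures differed by 1.82 (limma, 2 hr minus 1 hr, unadjusted p = 0.00129, adjusted p = 1.0). Thus Nfkbia and Sgk1 were high on every exposed array, whereas Gpd1 was high on the 2 hr arrays alone.

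Of the 31 genes of the glucocorticoid-responsive list, 14 were measured. The log2 change was above 0 for 11 and below 0 for 3, with a median of 0.35 against 0.045 over all genes. Without overlap, 3 were higher (21.4%, against 7.51% of all genes) and 1 was lower (7.14%, against 5.52%). The 3 were Nfkbia, Sgk1 and Cebpd. The lower one was the sulphotransferase gene Sult1a1, which read 187.8, 181.4 and 342.8 on the controls and 160.3 and 168.3 after 1 hr. Control replicate 3 carried the list's median, which was -0.012 without that array. Glul, the glutamine synthetase of astrocytes, spread over the controls from 1109.9 to 4055.1, so its change of 0.36 carried little information. Its second brightest probe set gave -0.42. None of the 14 was called.

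**Figure D2:**
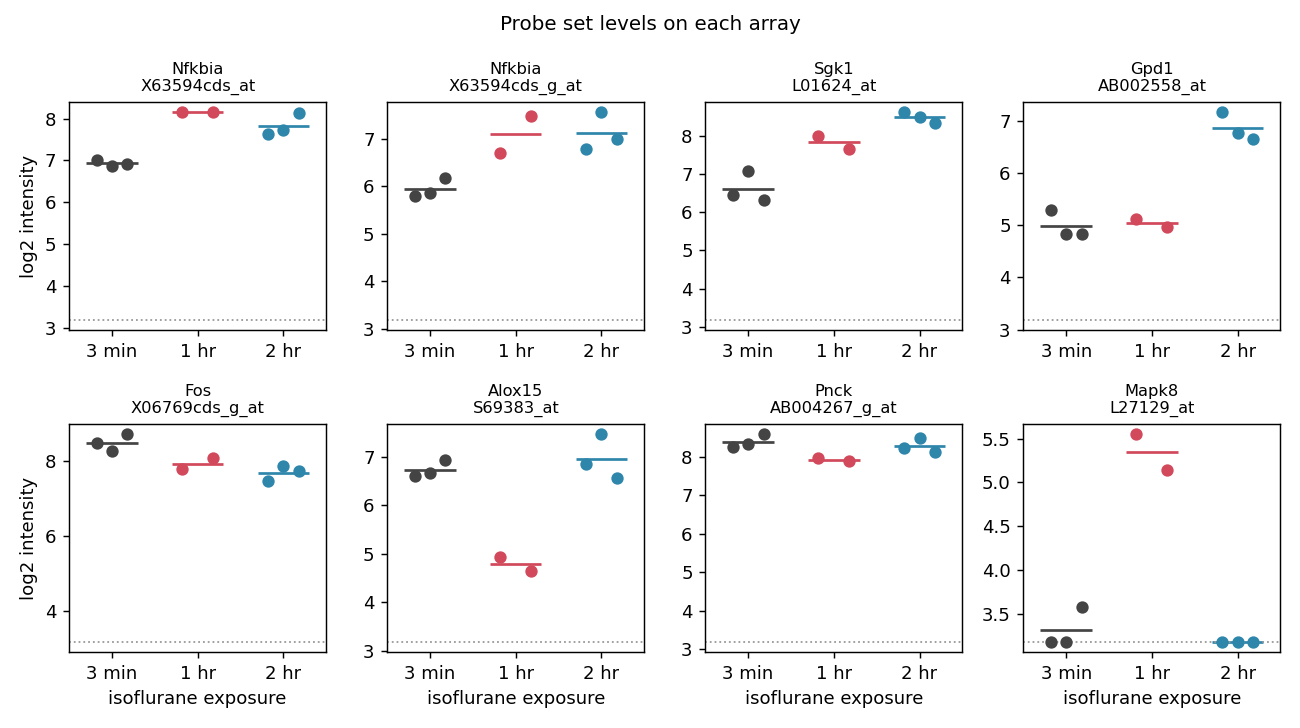
Log2 intensity of 8 probe sets on each array for rats exposed for 3 min (control), 1 hr and 2 hr. Points are arrays, short bars are group means and the dotted line is the floor at 3.19. Nfkbia and Sgk1 are higher at 1 hr and 2 hr, Gpd1 at 2 hr alone, and Alox15 is lower at 1 hr alone.

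More immediate early genes, which neuronal firing switches on, read lower than higher. Their mean log2 level was 6.63 and 6.80 on the 1 hr arrays, within the control range of 6.35 to 7.25. Of 30 measured, 19 had a change below 0 and 11 above, with a median of -0.145. Only 2 were below all controls without overlap (6.67%, against 5.52% of all genes) and 0 above (against 7.51%). The list's share of lower genes was thus close to that of all genes. The 2 were Fos and Homer1. Fos read 357.5, 309.1 and 422.9 on the controls and 221.5 and 271.4 after 1 hr (X06769cds_g_at). Both 1 hr arrays fell below the lowest control, at a change of -0.56 with a standard error of 0.28. Its other probe sets gave -0.93 and -1.18, both with overlap. All 3 had the same sign, but the change of -1.18 became 0.18 without 1 hr replicate 1. The 2 hr arrays read 179.7, 233.3 and 214.5 on the brightest.

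The remaining activity genes overlapped. Egr1 gave -0.48, -0.36, -0.57 and -0.07 on its 4 probe sets. Arc, whose RNA travels to active synapses, read 1693.9, 1099.9 and 215.4 on the controls and 406.7 and 613.5 after 1 hr. Its change was -1.15 within the other arrays but 0.92 within the high-range arrays, and control replicate 3 read lowest of all 8. Nr4a1 behaved likewise, with 900.5, 540.7 and 174.8 on the controls and 172.8 and 229.4 after 1 hr (U17254_g_at). Control replicate 3 read below control replicates 1 and 2 on these probe sets of Arc, Egr1 and Nr4a1, and that array also had the highest actin 3' to 5' ratio. Whether that ratio has a part in these readings was not tested. The list's median was 0.18 within the high-range arrays and -0.24 within the other arrays.

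Probe sets of one gene read the same RNA with other probes, so they were set against each other. Among 1375 genes with at least 2 tested probe sets, the brightest pair had the same sign of change in 804 (58.5%), with r = 0.206 across genes. Where both were at or above the median level it was 416 of 658 genes (63.2%, r = 0.421), and otherwise 388 of 717 (54.1%, r = 0.0841). Agreement was therefore closer among bright probe sets, and many pairs, often of overlapping sequence, pointed in opposite directions. These are correlations across genes that share the same arrays and are given as descriptions.

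At least 2 non-overlapping probe sets of one direction, with no other probe set against them, were found for 18 genes higher (1.31% of 1375) and 9 lower (0.655%). Another 18 genes had non-overlapping probe sets of opposite direction, as many as agreed higher. Of the agreeing genes, 7 of 18 and 5 of 9 rested on at least 2 accessions, and the others on overlapping probe sets of 1 accession. Under median centring 5 of the 18 (Ankra2, Lims1, Nfkbia, Qdpr and Zfp423) and 8 of the 9 still met the rule. One gene with opposed probe sets was Bdnf, the activity-dependent neurotrophin: S71196mRNA_s_at read 15.3, 14.3 and 10 on the controls and 38.1 and 29.1 after 1 hr, whereas D10938exon_s_at read 33.9, 43.7 and 42.2 against 28.9 and 31.4.

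**Figure D3:**
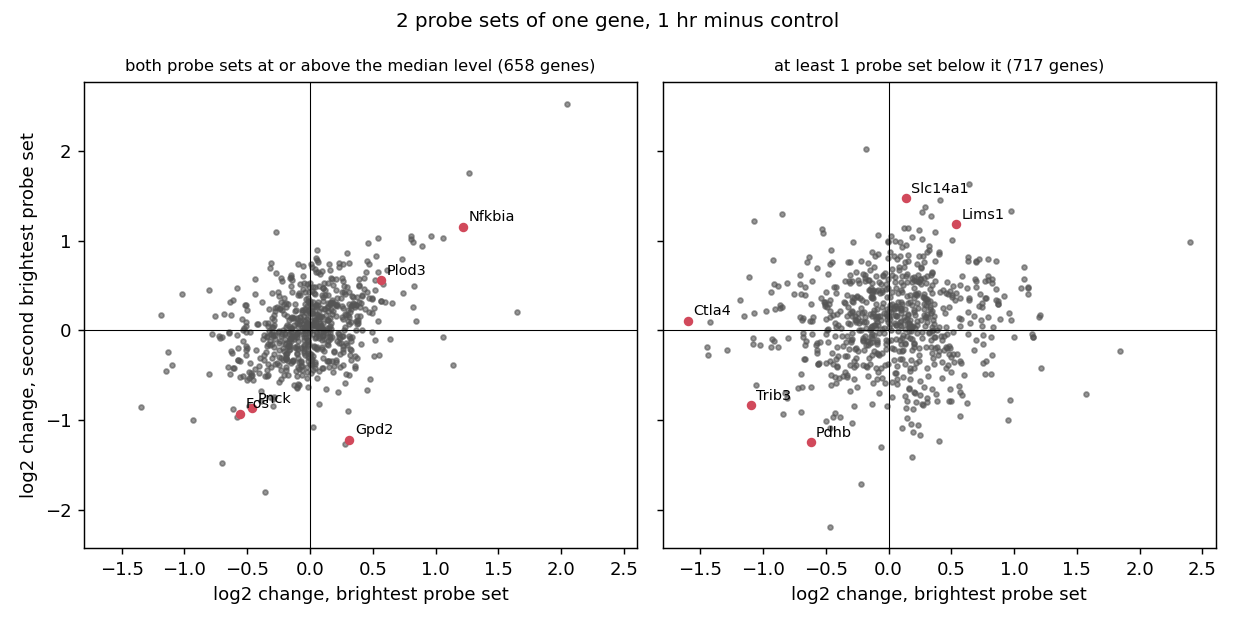
Log2 change (1 hr minus control) of the second brightest probe set against that of the brightest, 1 point per gene, for 658 genes with both at or above the median level (left) and 717 others (right). Agreement is closer on the left (63.2% of the same sign, against 54.1%). Nfkbia lies far along the diagonal, and Gpd2 and Ctla4 lie off it.

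Among the agreeing genes that read higher, Nfkbia and Cebpd were described above. Lims1 encodes PINCH-1, an adaptor of focal adhesions. Its dim probe sets read 11.2, 5.6 and 23.6 on the controls against 34.2 and 26.9 after 1 hr (rc_AA799637_at), and 5.8, 11.8 and 6.6 against 41.7 and 13.1 (rc_AA799637_g_at). The brightest probe set of Lims1 overlapped, at 0.54. Plcl1, a phospholipase C-like protein that binds inositol trisphosphate and GABA-A receptor partners, gave 0.68 and 0.76 on 2 probe sets of 2 accessions and 0.06 on its brightest.

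Plod3, a lysyl hydroxylase of collagen, read 185.7, 143.2 and 130.7 on the controls and 205.1 and 245.9 after 1 hr (rc_AA892859_g_at). Its other probe set gave 0.56, close to the 0.57 of the first. Syn2, the synaptic vesicle protein synapsin II, read 307.6, 245.4 and 286.1 on the controls and 336.8 and 397.8 after 1 hr on its brightest probe set (rc_AI145494_at). Its other probe sets gave 0.64 and 0.49, the last with overlap. Rnf130, an E3 ubiquitin ligase, gave 0.52 and 0.57, and these were 0.21 and 0.24 without control replicate 3. Znrf1, another ubiquitin ligase, gave 0.47 and 0.74. Zfp423, a zinc finger transcription factor, gave 0.51 and 1.01. Ankra2, an ankyrin repeat protein, gave 0.50 and 0.57. The other 8 were Gata6, Qdpr, Samd1, Gadd45a, Psmd1, Lrfn4, Capns1 and Slc14a1.

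The agreeing genes that read lower numbered 9. Pnck, a calcium- and calmodulin-dependent kinase of neurons, read 306.5, 321.1 and 384.8 on the controls and 249.4 and 237.5 after 1 hr (AB004267_g_at). Its change was -0.46 there and -0.86 on a second probe set (AB004267_at), whereas the third spread from 5.9 to 83.4 over the controls. At 2 hr the brightest probe set read 298.5, 362.8 and 279.5, within or near the control range. Atp2b3, a plasma membrane calcium pump, read 368.1, 257.9 and 226.9 on the controls and 178.6 and 159.1 after 1 hr (J05087_at). Its other probe sets gave -0.64 and -0.46.

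Prkcb, protein kinase C beta, read 1028.4, 1586.7 and 605.6 on the controls and 519.2 and 524.3 after 1 hr on its brightest probe set (X04139_s_at). Its 3 probe sets gave -0.93, -1 and -0.64, the last with overlap. Ppp2r2a, a regulatory subunit of protein phosphatase 2A, read 601.2, 761.4 and 730.7 against 550.7 and 446.7 (M83298_g_at), at -0.48. Homer1, a scaffold of glutamate receptors, had 6 probe sets, all below 0. Of these, 3 did not overlap, and the brightest over all 8 arrays (AB017140_g_at) read 260.4, 330.3 and 271.7 against 203.5 and 192.1.

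The other 4 were Pdhb, Trib3, Ugcg and Nppa. Pdhb, the beta subunit of pyruvate dehydrogenase, gave -0.62 and -1.25. Trib3, a stress-induced pseudokinase, gave -1.10 and -0.83, from 98.0, 59.6 and 37.9 on the controls to 28.2 and 28.4 after 1 hr on the brighter (rc_H31287_at). Ugcg, the glucosylceramide synthase, gave -0.69 and -0.54 on 2 dim probe sets and -0.08 on its brightest. Nppa, the atrial natriuretic peptide, gave -0.94 and -1.34 on the probe sets without overlap. On one of them (E00903cds_s_at) control replicate 3 read 233.8 and the other controls 25.4 and 26.5, close to 18.6 and 24.6 after 1 hr. Npr1, the receptor of that peptide, gave -1.36 on S82229_s_at, and 0.34 and 0.18 on its other probe sets.

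Alox15, a lipoxygenase that oxidises arachidonic acid, read lower after 1 hr on a single bright probe set. S69383_at read 97.3, 101.9 and 121.9 on the controls, and 30.7 and 25.0 after 1 hr. Both 1 hr arrays lay at least 3-fold below every control, and the arrays within each group differed little. Its log2 level was 6.73 ± 0.17 (SD, n = 3) in controls and 4.79 ± 0.21 (SD, n = 2) after 1 hr. The log2 change was -1.94 with a standard error of 0.38, 3.84-fold lower (limma, unadjusted p = 0.000516, adjusted p = 1.0). The change was -1.99 within both the high-range arrays and the other arrays. At 2 hr the probe set read 115.5, 176.7 and 94.6, back at the control level, and the exposures differed by 2.17 (limma, 2 hr minus 1 hr, unadjusted p = 0.000229, adjusted p = 0.631). No second probe set of Alox15 was tested.

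Ctla4, an inhibitory receptor of T cells, read 62.9, 84.8 and 95.3 on the controls and 23.9 and 29.1 after 1 hr (U37121_at), 3.03-fold lower. Its other probe set gave 0.11, so the pair disagreed. Tmem69, a membrane protein, read 91.8, 116.1 and 148.8 on the controls and 20.6 and 47.9 after 1 hr, at -1.89. Fcer2, a low-affinity IgE receptor, read 137.4, 126.7 and 154.1 against 25.5 and 92.9. Most of its change came from 1 hr replicate 1. Gpd2, the mitochondrial glycerol-3-phosphate dehydrogenase, gave -1.22 on X78593_g_at, -1.23 with overlap on X78593_at and 0.31 on its brightest, U83879_at. Tnks2, a poly-ADP-ribosylating tankyrase, read 245.5, 382.7 and 225.4 against 127.1 and 151.9, at -0.99.

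Among single bright probe sets that read higher, Gmfb, glia maturation factor beta, read 47.3, 33.0 and 35.0 on the controls and 116.3 and 81.7 after 1 hr, 2.57-fold higher. Jag2, a Notch ligand, read 131.3, 157.1 and 146.4 on the controls and 290.3 and 226.3 after 1 hr (U70050_at), and its other probe set gave 0.50 with overlap. Med25, a subunit of the Mediator complex, read 304.8, 134.9 and 87.6 against 411.9 and 398.8. Its controls spread widely, with an SD of 0.91 (log2, n = 3) beside a change of 1.40. Mms19, a factor of iron-sulphur protein assembly, gave 1.15 on one probe set and -0.08 on the other. Slc4a2, an anion exchanger, gave 1.21 and 0.17. Rpl19l4, a ribosomal protein L19-like gene, read 21.2, 36.5 and 138.1 against 284.5 and 218.0, and reads of its near-identical copies cannot be told apart on such an array.

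For dim probe sets the fold depends on the floor. Mapk8, the stress kinase JNK1, read 6.8, 3.2 and 12 on the controls and 46.8 and 35.4 after 1 hr (L27129_at). It read 2.9, 8.6 and 7.1 at 2 hr, so the 1 hr arrays stood apart from all 6 others. Its log2 change was 2.03 with 2 of 3 controls at the floor, and it was 0.54 with a floor at the 40th percentile. Itpr2, an inositol trisphosphate receptor that releases stored calcium, read 9.3, 11.9 and 6.5 against 29.4 and 19.4. Prl, the pituitary hormone prolactin, read 15.2, 4.1 and 13.5 against 44.5 and 51.0.

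The gene families of known volatile anaesthetic targets held no called gene, and their list medians ran from -0.076 to 0.166. Of 30 measured genes of GABA and glycine signalling, 16 were above 0 and 14 below, with a median of 0.06. Without overlap, 4 were higher (13.3%, against 7.51% of all genes) and 1 was lower (3.33%, against 5.52%). Gad2, the smaller glutamate decarboxylase that makes GABA, read 11.5, 17.0 and 15.4 on the controls and 50.7 and 31.0 after 1 hr. At 2 hr it read 31.9, 32.0 and 25.8, so all 5 exposed arrays were above all controls, at a low level. Gabrp, a GABA-A receptor subunit found mainly outside the brain, read 5.7, 4.9 and 3.1 against 18.4 and 17.1. Gabrg1 read 44.0, 33.8 and 39.2 against 67.4 and 54.8, and Gabra6, the cerebellar granule cell subunit, read 33.6, 31.7 and 51.7 against 26.1 and 21.

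Glutamate receptor and transporter genes split evenly, with 20 of 37 above 0 and a median of 0.021. Without overlap, 2 were higher (5.41%, against 7.51% of all genes) and 4 lower (10.8%, against 5.52%). Grin2a, an NMDA receptor subunit, read 73.5, 60.3 and 116.8 on the controls and 251.1 and 119.3 after 1 hr, the lower reading being just above control replicate 3. Dlg4, the postsynaptic scaffold PSD-95, read 390.6, 485.0 and 337.9 against 629.4 and 502.3. Gria4, an AMPA receptor subunit, read 18.4, 31.9 and 37.0 against 15.4 and 14.9 (M36421_s_at), and its other probe sets gave 0.49 and -0.42 with overlap. Grid1, an orphan glutamate receptor, read 62.9, 88.3 and 17.5 against 16.7 and 11.9, so its change of -1.71 came from control replicates 1 and 2.

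Potassium channel genes gave 19 of 36 above 0, and 2 higher and 3 lower without overlap (5.56% and 8.33%, against 7.51% and 5.52% of all genes). Kcnab1, an auxiliary subunit of voltage-gated channels, read 39.7, 47.7 and 89.1 on the controls and 14.3 and 22.6 after 1 hr. Kcnh2, the ERG channel, read 167.1, 138.8 and 154.6 against 237.3 and 185.7 (U75210_s_at), whereas its other probe set gave -0.66 with overlap. Kcnj10, the inward rectifier of astrocytes, gave -0.91 on its brightest probe set, but it is one of the genes whose probe sets opposed each other. Of 26 sodium, calcium and HCN channel genes, 1 was higher and 1 lower without overlap (3.85% each, against 7.51% and 5.52%). These were Itpr2, above, and Cacna2d1, a calcium channel subunit that read 426.6, 462.1 and 691.6 against 410.2 and 382.9.

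Monoamine and acetylcholine receptor genes gave 28 of 43 above 0, with a median of 0.134. Without overlap 4 were higher (9.30%, near the 7.51% of all genes) and 0 lower (against 5.52%). Htr2a, a serotonin receptor, gave 1.85 on one dim probe set and -0.23 on the other, and Chrna4, a nicotinic subunit, read 77.1, 67.0 and 12.8 against 94.9 and 83.9. Chrnb3 and Chrm2 were the others. Synaptic vesicle and release genes gave 29 of 48 above 0, with a median of 0.166 that was 0.008 without control replicate 3. Without overlap 5 were higher and 1 lower (10.4% and 2.08%, against 7.51% and 5.52% of all genes). Syt11, a synaptotagmin, read 77.4, 82.0 and 50.6 on the controls and 103.6 and 164.9 after 1 hr. Nrxn3, a presynaptic adhesion protein, read 138.1, 131.9 and 137.8 against 174.6 and 171.0. Vamp3, a vesicle SNARE, was the lower one, with 231.0, 232.4 and 255.6 against 168.5 and 167.0. For these families the median ran from -0.25 to 0.04 within the other arrays and from 0.04 to 0.51 within the high-range arrays, so the pairings of arrays differed.

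Inflammatory and cytokine genes gave 25 of 32 above 0, with a median of 0.309 and a range from 0.077 to 0.439 over the alternative settings. Without overlap 4 were higher (12.5%, against 7.51% of all genes) and 3 lower (9.38%, against 5.52%). Nfkbia had the smallest p of the 4. Il1r1, the interleukin-1 receptor, came next and was dim, with 13.7, 6.3 and 4.9 on the controls and 22.8 and 18.1 after 1 hr. Of its ligands, Il1b read 28.8, 26.6 and 43.8 against 15.1 and 15.4. Il1a read 89.4, 84.3 and 67.2 against 19.0 and 65.1 (D00403_at), a change of -1.18 that was -0.29 without 1 hr replicate 1, and its other probe set gave 0.34 with overlap. Neuropeptide genes gave 4 higher and 2 lower of 32 without overlap (12.5% and 6.25%, against 7.51% and 5.52% of all genes). Hcrt, the arousal peptide orexin of the hypothalamus, read 142.6, 110.6 and 140.4 on the controls and 322.3 and 173.8 after 1 hr. Oxt, oxytocin, read 25.3, 16 and 11.7 against 153.3 and 33.8, and it read 1579.7 on 1 of the 2 hr arrays.

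Lists of cell stress showed no common direction. Heat shock proteins and chaperones gave 9 of 24 above 0, with a median of -0.159. Without overlap 1 was higher and 2 lower (4.17% and 8.33%, against 7.51% and 5.52% of all genes). Fkbp1a, the binding protein of the drug FK506, read 1348.8, 1316.0 and 1150.9 on the controls and 727.3 and 1069.0 after 1 hr on its brightest probe set. Its other probe sets gave -0.24, -0.11 and 0.03. Hsp90b1, an endoplasmic reticulum chaperone, read 409.4, 344.2 and 339.7 against 491.2 and 473.4 on its brightest, and its other probe sets gave 0.795 and -0.15. Hypoxia-responsive genes had a median of 0.056, with 4 higher and 2 lower of 22 without overlap (18.2% and 9.09%, against 7.51% and 5.52%). Egln3, an oxygen-sensing prolyl hydroxylase, read 149.2, 185.0 and 143.0 against 94.3 and 118.9, and Pdk1, a kinase that inhibits pyruvate dehydrogenase, read 98.1, 78.5 and 77.7 against 37.2 and 67.5. Hmox1, heme oxygenase 1, was among the higher genes, with 74.6, 76.3 and 22.8 against 86.6 and 101.3, and its other probe set gave 0.13.

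In the MAP kinase list, 2 of 24 were higher and 4 lower without overlap (8.33% and 16.7%, against 7.51% and 5.52% of all genes). Map2k1, the kinase MEK1, read 613.7, 922.6 and 537.4 against 341.7 and 485.5, and its other probe sets gave -0.07 and -0.13 with overlap. Dusp5, a phosphatase of ERK that follows its activity, read 126.3, 91.5 and 88.3 against 56.4 and 70.3, and stood at 56.6, 67.4 and 66.2 at 2 hr, so all 5 exposed arrays were below all controls. Circadian clock genes gave 3 higher and 0 lower of 11, namely Bhlhe40, Tef and Csnk1d (27.3%, against 7.51% of all genes), with a list median of 0.04. The other probe set of Csnk1d gave -0.28. Apoptosis regulators gave 0 higher and 2 lower of 15 (13.3%, against 5.52% of all genes), and antioxidant genes 1 and 1 of 24 (4.17% each). Growth factor genes gave 2 higher and 5 lower of 41 (4.88% and 12.2%, against 7.51% and 5.52% of all genes). Nrg1, neuregulin 1, read 59.0, 51.5 and 52.9 on the controls and 30.3 and 27.9 after 1 hr, and 48.5, 83.1 and 42.9 at 2 hr (M92430_at). Its 3 other probe sets overlapped, at -0.63, 0.14 and 0.24. Ngfr, the p75 neurotrophin receptor, read 518.5, 150.8 and 313.8 against 684.4 and 600.5 (U25650_f_at), whereas its other probe set gave -0.39 with overlap.

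Lists of energy metabolism had medians near 0. Oxidative phosphorylation genes gave 14 of 41 above 0 and 27 below, with a median of -0.048. In each direction 2 genes did not overlap (4.88% each, against 7.51% higher and 5.52% lower over all genes). Ndufb6, a subunit of complex I, read 963.9, 1256.6 and 798.3 on the controls and 529.2 and 384.7 after 1 hr, whereas Ndufb9 of the same complex read 1455.0, 1655.8 and 1452.4 against 2563.9 and 1894.4. Glucose transport and glycolysis genes had a median of 0.035, with Pgk1, phosphoglycerate kinase, at 1206.9, 1258.8 and 1427.3 against 1427.8 and 1762.3 on one probe set and a change of -0.16 on the other. Cholesterol synthesis genes had a median of 0.092 and 1 non-overlapping gene in each direction (6.25% each). Of 41 xenobiotic genes, 0 were higher and 4 lower without overlap (9.76%, against 5.52% of all genes). Cyp2d3, a cytochrome P450, read 67.5, 65.4 and 64.1 against 11 and 34.7. Of 37 ribosomal protein genes only Rpl30 did not overlap, and it read higher (2.7%, against 7.51% of all genes). The list's median was -0.64 within the high-range arrays and 0.19 within the other arrays.

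**Figure D4:**
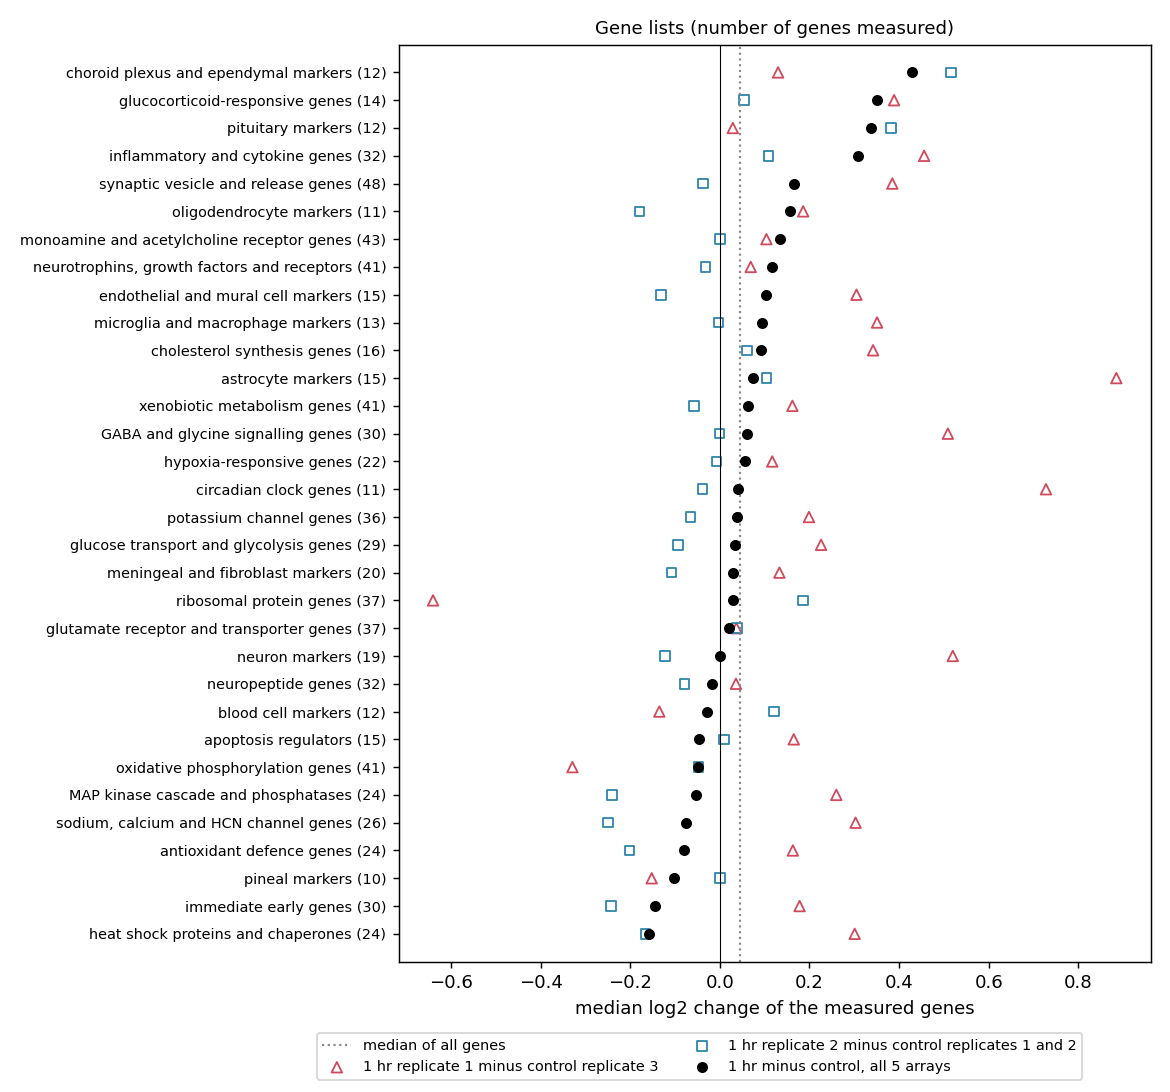
Median log2 change of each gene list (black: 1 hr minus control over all 5 arrays; red triangles: 1 hr replicate 1 minus control replicate 3; blue squares: 1 hr replicate 2 minus control replicates 1 and 2). The number of genes measured stands in brackets. The open symbols of one list often lie on opposite sides of 0, as for the immediate early and ribosomal protein genes.

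The brain label was borne out by its markers. Mbp of myelin read from 2544.0 to 6219.5 and Snap25 of nerve terminals from 146.8 to 657.6 over the 5 arrays (K00512_at and AB003991_g_at). Syt1 was dim, from 15.6 to 47.6. Neuron markers gave 10 of 19 above 0 with a median of 0.001 and 0 non-overlapping genes. Astrocyte markers gave 8 of 15 above 0 with a median of 0.074, and 1, Gja1, was higher without overlap. Apoe, an abundant lipoprotein of astrocytes, read 1429.4 on 1 hr replicate 2 and 8104.7 to 14685.7 on the other 4 arrays (X04979_at). Of 11 oligodendrocyte markers 7 were above 0, with a median of 0.157. Without overlap 0 were higher and 1, Mbp, was lower (9.09%, against 5.52% of all genes). Mbp thus went against most of its list, and read 6219.5, 5930.2 and 4909.1 on the controls and 4798.1 and 2544.0 after 1 hr. Apoe and Mbp are among the brightest probe sets, and 1 hr replicate 2 had the lowest top intensity of the 5 arrays. The part of that range in their readings was not tested. Microglia, endothelial, blood, meningeal and pineal lists had at most 2 non-overlapping genes in a direction, but these lists are short. Higher were 2 of 12 blood cell markers (16.7%) and 2 of 15 endothelial and mural cell markers (13.3%), against 7.51% of all genes. Neither of these lists had a lower one. Of 20 meningeal and fibroblast markers, 1 was higher and 2 were lower. The 13 microglia and the 10 pineal markers gave 1 in each direction. Over all genes 5.52% were lower.

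Markers of neighbouring tissue differed between the 1 hr arrays. Of 12 choroid plexus and ependymal markers, 8 were above 0, 4 were higher without overlap (33.3%, against 7.51% of all genes) and 1, Igf2, was lower (8.33%, against 5.52%). The median was 0.428, but 0.017 without 1 hr replicate 2. Their summed intensity ran from 1393.5 to 1744.6 on the controls and from 1546.8 to 4643.7 on the 1 hr arrays, and 0 of the 12 sat at the floor on all 5 arrays. Ttr, transthyretin, the chief secreted protein of choroid plexus, read 293.1, 145.4 and 120.9 on the controls, 171.2 on 1 hr replicate 1 and 2964.6 on 1 hr replicate 2 (rc_AA945169_at). It thus stood out on 1 array, and its second probe set did the same. Sostdc1, a choroid plexus BMP antagonist, read 7.9, 26.8 and 36.7 against 93.2 and 77.3, and Enpp2, autotaxin, read 177.2, 271.3 and 181.7 against 324.5 and 304.8, on both arrays alike. Igf2 gave -0.52 on its brightest probe set and from -1.12 to 0.37 on its others. Of 12 pituitary markers 10 were above 0 and 1, Prl, was higher without overlap (8.33%). Their summed intensity ran from 539.2 to 616.4 on the controls and from 676.9 to 885.8 on the 1 hr arrays. Gh1, growth hormone, read 37.0, 25.5 and 33.0 on the controls, 24.8 on 1 hr replicate 1 and 156.5 on 1 hr replicate 2. Pomc, the precursor of corticotropin, read 25.1, 29.3 and 48.3 on the controls, then 16.8 and 102.5. The part of choroid plexus and pituitary RNA in the differences above was not tested.

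**Figure D5:**
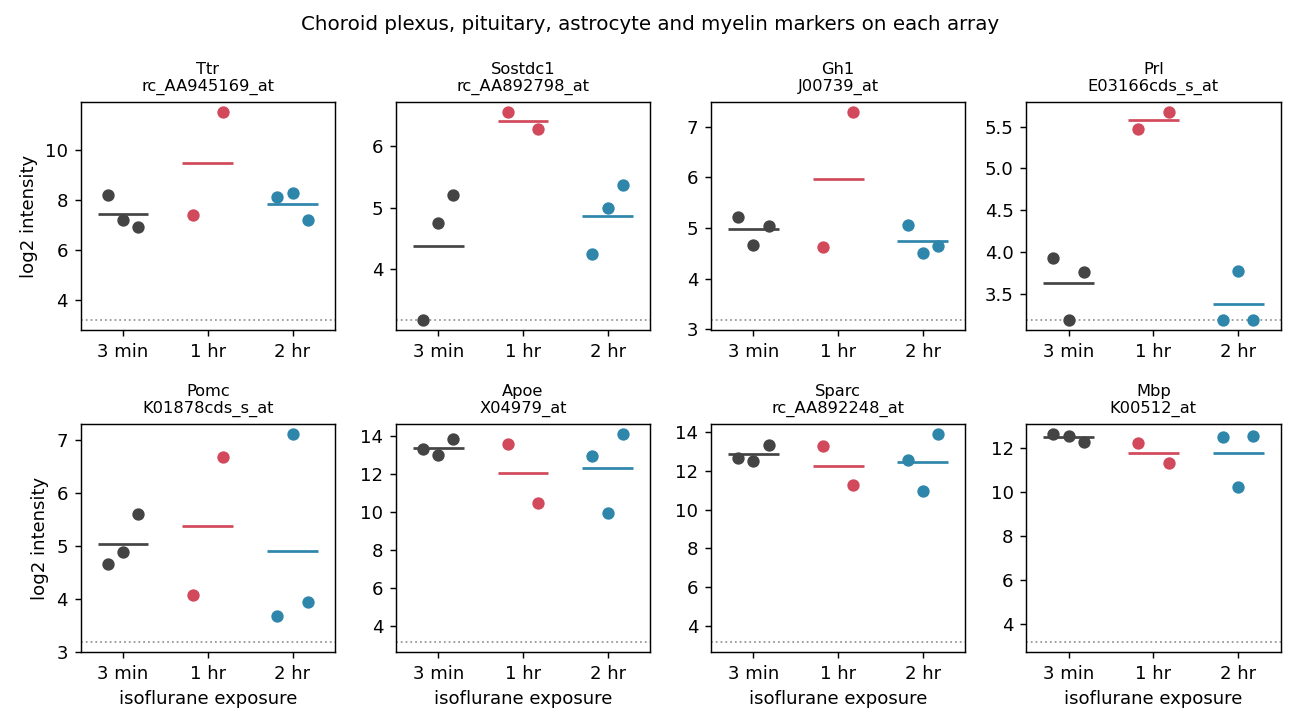
Log2 intensity of markers of choroid plexus (Ttr, Sostdc1), pituitary (Gh1, Prl, Pomc), astrocytes (Apoe, Sparc) and myelin (Mbp) on each array for rats exposed for 3 min (control), 1 hr and 2 hr. Points are arrays, bars group means and the dotted line the floor at 3.19. The right-hand 1 hr point, replicate 2, is high for Ttr, Gh1 and Pomc and low for Apoe, Sparc and Mbp. The whole astrocyte list averaged 9.13 on that array, within the control range of 8.95 to 9.49. The 2 brightest probe sets of Sparc gave log2 changes of -0.58 and 0.47.

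Set beside the 2 hr arrays, which were compared with the same controls, limma called 0 probe sets for 2 hr against 1 hr (smallest adjusted p = 0.411, 215 at an unadjusted p under 0.05). Alox15, Ctla4 and Mapk8 stood apart at 1 hr alone. Gpd1 stood apart at 2 hr alone. Nfkbia, Sgk1, Gad2 and Dusp5 read on the same side of all controls on all 5 exposed arrays. These patterns are descriptions of single probe sets and were picked from many.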

How the data were processed

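Whole-brain total RNA of 8 rats' samples was hybridised to 8 rat short-oligonucleotide arrays. The authors deposited 1 linear intensity per probe set and array. The sources used here do not name the software, the scaling target or detection calls. Trimmed means of 150.17 to 150.32 show that the arrays had been scaled alike, so the deposited intensities were used without further scaling. Of 8799 probe sets, 59 AFFX controls were left out. A floor was set at an intensity of 9.1, the 20th percentile over all arrays, before taking log2. The filter kept the 7770 probe sets that exceeded this floor on 2 or more arrays. The floor understates changes of dim genes. The platform annotation gave 1 gene symbol for 7006 probe sets, several for 308 and none for 1426.

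Limma 3.58.1 in R 4.3.3 (lmFit, contrasts.fit, eBayes with an intensity trend) was fitted on all 8 arrays with 1 mean per group, two-sided, with Benjamini-Hochberg adjustment and a threshold of 0.05. Levels are given as deposited intensities and changes on the log2 scale. The number of arrays limits the precision. The fit was checked on simulated data.

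Named genes were those called, up to 10 per direction that agreed between probe sets, up to 8 per direction with a non-overlapping probe set at or above the median level, up to 4 non-overlapping members of each list (otherwise the 1 or 2 of smallest p), and Fos, Egr1, Arc, Sgk1, Gpd1 and Errfi1. Lists, 32 in all with 10 of markers, used the brightest probe set per gene. The members, lists and rules were chosen with earlier results of these data known. Nr4a1, Bdnf, Ttr, Gh1, Pomc, Apoe, Sparc, Glul, the last 8 agreeing genes and the probe sets of the closing section were added after their values were seen. The labels do not say that replicate numbers pair samples, so the main fit used no pairing. Alternatives changed the floor, filter, scaling, trend, blocks and arrays left out.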

Additional observations from a re-analysis of the deposited data

How the results depend on the processing

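Limma called 0 probe sets under 17 of the 18 alternative settings. With no filter on low values it called 4, all near the floor, with a smallest adjusted p of 0.0292. With a floor at the 40th percentile 388 probe sets were higher without overlap and 5 genes agreed lower. Quantile normalization gave 10 agreeing genes higher and 18 lower. Median centring gave 5 and 22, and 679 probe sets lower without overlap. Leaving out each array in turn, which makes it easier not to overlap, gave 904 to 2382 probe sets higher and 689 to 1463 lower, with 39 to 147 genes agreeing higher and 21 to 72 lower. With the replicate block limma again called 0 (smallest adjusted p = 0.105, 260 at an unadjusted p under 0.05), and 15 and 7 genes agreed. Same-numbered control and 1 hr arrays correlated in their deviations from the group means at -0.331 and 0.201. With only 2 arrays in the 1 hr group, their deviations mirror each other, so these values cannot show whether the numbers pair the samples. On the brightest probe set, the sign of change was the same in every alternative that gave a value for 112 of 119 named genes, with Plcl1, Zfp423, Ugcg, Arc, Gpd1, Syn1 and Mbp as exceptions. Other probe sets of Prkcb, Homer1, Ppp2r2a, Pnck, Nppa, Syn2, Fos and Egr1, among further named genes, changed sign in at least 1 alternative. The sign of only 3 of 32 list medians was the same throughout: the inflammatory, synaptic vesicle and choroid plexus lists, and the last 2 came to 0.008 and 0.017 without 1 array. The block of the 3 arrays with a top intensity above 20000 was chosen after seeing the data and called 0. A block of the arrays of low 5S reading also called 0, with 472 at an unadjusted p under 0.05 (limma). Under it the median was 0.727 for neuron markers and -0.732 for ribosomal protein genes, against 0.001 and 0.03 in the main fit. Arc moved from -0.56 to 0.44 and Gja1 from 0.996 to 0.07, while Nfkbia and Sgk1 stood at 1.14 and 1.43. The 2 exposed arrays limit the precision, with a median standard error of 0.51 for dim and 0.42 for bright probe sets.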

Other observations

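The largest change of all tested probe sets belonged to a probe set without a gene symbol in the platform annotation, X05472cds#2_at. It read 40.7, 67.8 and 188.3 on the controls, and 505.1 and 1408.0 after 1 hr, a log2 change of 3.39 (limma, unadjusted p = 0.00238). At 2 hr it read 151.9, 94.9 and 571.8. Together with the probe sets of the accession M13100, also without a symbol, it was chosen after its values were seen. The 2 accessions have 10 tested probe sets, and all 10 changes were above 0, from 0.74 to 3.39, with 3 higher without overlap. Over all tested probe sets 55.8% were above 0 and 7.54% were higher without overlap. All 10 were also higher on control replicate 3 than on the other controls. Among them M13100cds#1_at was bright, with 635.7, 427.3 and 1249.7 on the controls against 1740.5 and 1451.3 after 1 hr.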
